A study of Mus musculus with 35 samples.

Results

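Autophagy carries proteins and organelles that a cell is to degrade into the lysosome, and 10 of its genes were examined in the striatum of a mouse model of Huntington's disease. They were the initiating kinase gene *Ulk1*, the beclin gene *Becn1*, the conjugation genes *Atg5* and *Atg7*, the ATG8-family genes *Map1lc3a*, *Map1lc3b*, *Gabarap* and *Gabarapl1*, and the cargo receptor genes *Sqstm1* and *Optn*. These 10 members were chosen by gene name and not by a rule on their measured values, though with earlier results of these data known. Each of them was found among the 22099 genes listed and passed the filter on low counts. RNA was sequenced from the striatum of 35 female C57BL6/J mice aged 299 to 304 days, with 1 library per mouse. Htt+/+ mice, which carry only wild-type huntingtin alleles, were 6 given saline, 5 given control ASO and 6 given *Htt* ASO. HttQ111/+ mice, which carry 1 knock-in *Htt* allele with an expanded CAG repeat beside a wild-type allele, numbered 6 under each of the same treatments. An ASO is an antisense oligonucleotide, here one aimed at mouse *Htt* transcripts of both alleles or an off-target control. Weekly injections into the peritoneum, of 50 mg/kg of either ASO or 4 µL/g of saline, ran from 2 to 10 months of age, a route that the study chose to lower huntingtin outside the brain. The label ASO1 was read as *Htt* ASO.

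In autophagy, a kinase complex built on ULK1 and a lipid kinase complex that holds beclin 1 start a membrane sac. ATG7 and ATG5 belong to the enzyme cascade that fixes ATG8 proteins, the LC3 and GABARAP families, to its lipids. Receptors such as p62, the product of *Sqstm1*, and optineurin then tie ubiquitin-marked cargo, including aggregated protein, to the lipid-bound ATG8 proteins, and are degraded with it. The study asked whether lowering huntingtin in peripheral organs changes signs of disease in the striatum, and these transcripts report on mRNA levels only, not on the flux of autophagy.

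Total counts per mouse were 32200158 to 38641924. The deposited values were expected counts, reads per gene as estimated when a read that matches several transcripts is divided among them. Levels below are CPM, the usual counts relative to sequencing depth, on library sizes scaled by TMM, a method that sets libraries on a common scale. Differences are log2 fold changes from limma after voom, with p-values adjusted over 17639 genes and a threshold of 0.05. The *Htt* transcript, listed as *Hdh*, ranged from 60.9 to 104 CPM over all mice, and its *Htt* ASO minus control ASO difference was −0.077 (95% confidence interval −0.22 to 0.062, limma adjusted p = 0.967). Its HttQ111/+ minus Htt+/+ difference, averaged over treatments, was −0.23 (95% confidence interval −0.34 to −0.12, limma adjusted p = 0.0010). Striatal projection neuron markers were present in every mouse, with 9 genes summing to 7496 to 8777 CPM in Htt+/+ and 5020 to 6007 CPM in HttQ111/+ mice, and 8 of the 9 were called lower in HttQ111/+ mice. The ninth, *Tac1*, was called higher (0.13, limma adjusted p = 0.00026). In bulk tissue, fewer cells of a type and less RNA per cell cannot be told apart. Markers of other cell types that were called by genotype were all lower in HttQ111/+ mice: 3 of 6 of astrocytes, 3 of 6 of microglia, 2 of 6 of oligodendrocytes and 4 of 5 of endothelium. Over all genes tested, the same comparison called 39.8%, with 3182 of 17639 lower, so a lower call as such was common. None of 4 choroid plexus, 5 cortical neuron or 2 blood markers was called. A mouse of the Htt+/+ control ASO group, replicate 1, stood apart with a choroid plexus sum of 1573 CPM against at most 146 CPM in any other mouse, and without it the members called by genotype, on average and on control ASO, were the ones called with it. Lane 7, as read from the titles, held 6 mice, all HttQ111/+, so there lane and genotype cannot be told apart. These mice were saline replicates 1, 2 and 4, control ASO replicates 4 and 5, and *Htt* ASO replicate 1. Lane 7 was thus uneven over treatments as well.

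The start regions of 4 of the members that differed between genotypes are shown here, as the sequence RefSeq gives around a start of each gene. They come from RefSeq on GRCm38.p6, which held 8 of the 10 members, and run from 250 bases before to 50 bases after a start, 5′ to 3′ on the gene's strand. The windows are chr5:110810032-110810331 on the minus strand for *Ulk1*, chr6:114670846-114671145 on the plus strand for *Atg7*, chr6:129532942-129533241 on the plus strand for *Gabarapl1* and chr11:50210771-50211070 on the minus strand for *Sqstm1*. The *Atg7* window lies well inside the annotated gene, so it need not be the start of the transcript measured. Capitals mark a match to the E-box CACGTG.
*Ulk1*: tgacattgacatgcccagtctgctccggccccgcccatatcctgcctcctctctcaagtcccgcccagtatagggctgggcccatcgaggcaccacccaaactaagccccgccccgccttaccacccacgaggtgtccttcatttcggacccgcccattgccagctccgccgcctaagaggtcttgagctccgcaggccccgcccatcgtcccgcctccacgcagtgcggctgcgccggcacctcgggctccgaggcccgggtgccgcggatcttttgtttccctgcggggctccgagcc
*Atg7*: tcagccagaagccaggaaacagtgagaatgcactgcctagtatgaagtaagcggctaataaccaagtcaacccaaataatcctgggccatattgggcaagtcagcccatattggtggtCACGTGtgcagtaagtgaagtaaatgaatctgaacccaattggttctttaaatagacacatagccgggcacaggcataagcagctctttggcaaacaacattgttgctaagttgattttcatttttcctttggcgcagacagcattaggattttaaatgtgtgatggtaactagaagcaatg
*Gabarapl1*: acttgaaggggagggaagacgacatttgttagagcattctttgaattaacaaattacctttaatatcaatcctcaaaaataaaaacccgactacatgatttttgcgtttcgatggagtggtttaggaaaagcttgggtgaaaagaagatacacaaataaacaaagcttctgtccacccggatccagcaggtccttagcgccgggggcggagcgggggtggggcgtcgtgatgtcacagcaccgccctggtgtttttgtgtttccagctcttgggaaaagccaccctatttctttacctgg
*Sqstm1*: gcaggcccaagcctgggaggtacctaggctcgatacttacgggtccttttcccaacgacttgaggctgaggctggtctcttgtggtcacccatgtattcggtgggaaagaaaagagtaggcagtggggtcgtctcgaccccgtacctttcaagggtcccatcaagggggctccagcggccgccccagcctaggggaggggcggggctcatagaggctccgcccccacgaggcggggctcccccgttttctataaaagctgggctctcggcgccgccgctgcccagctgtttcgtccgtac
The windows differed in base composition, with 68.0% G and C for *Ulk1*, 63.3% for *Sqstm1*, 46.3% for *Gabarapl1* and 42.7% for *Atg7*, against a median of 52.7% over 32851 promoters. On both strands 3 motifs were searched. The core TCACGTGA of the CLEAR element, to which the lysosomal regulator TFEB binds, was in 0.97% of all promoters and in none of the 8 members' windows. At so low a share, its absence from 8 windows does not set the members apart. The E-box CACGTG, which the CLEAR core contains, was in 7.15% of all promoters and in the windows of *Atg7* and *Atg5*. The antioxidant response core TGACNNNGC was in 12.39% of all promoters and, among members, in that of *Map1lc3b*. A match is a description of letters and not a bound site.

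Levels can be compared between genes only per length, and were set per 1000 bases of each gene's principal coding transcript, or its longest where none was marked. *Gabarapl1* was the most abundant at 319.8 ± 10.6 CPM per kilobase (SD, n = 35 mice), followed by *Sqstm1* at 130.8 ± 7.10 CPM per kilobase and *Gabarap* at 86.0 ± 2.49 CPM per kilobase. On this scale these 3 levels did not overlap with each other or with any other member in any mouse. *Map1lc3b* at 70.1 ± 2.51 and *Map1lc3a* at 61.4 ± 4.03 CPM per kilobase came next, and their ranges over mice overlapped. *Becn1* followed at 24.5 ± 0.698 CPM per kilobase, well apart from its neighbours. *Ulk1* at 12.5 ± 1.20 and *Atg5* at 9.58 ± 0.455 CPM per kilobase overlapped, as did *Atg7* at 4.18 ± 0.338 and *Optn* at 3.42 ± 0.370. The GABARAP-type transcript *Gabarapl1* thus lay far above both LC3 genes on this scale. Only 1 length was used per gene, and the order was not tested with other lengths. All annotated exons covered 7517 bases for *Map1lc3b*, against 2532 used, and 1844 for *Gabarap*, against 1351 used. The spread over all mice, as a coefficient of variation, ran from 2.85% for *Becn1* and 2.89% for *Gabarap* to 9.60% for *Ulk1* and 10.8% for *Optn*.

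**Figure D1:**
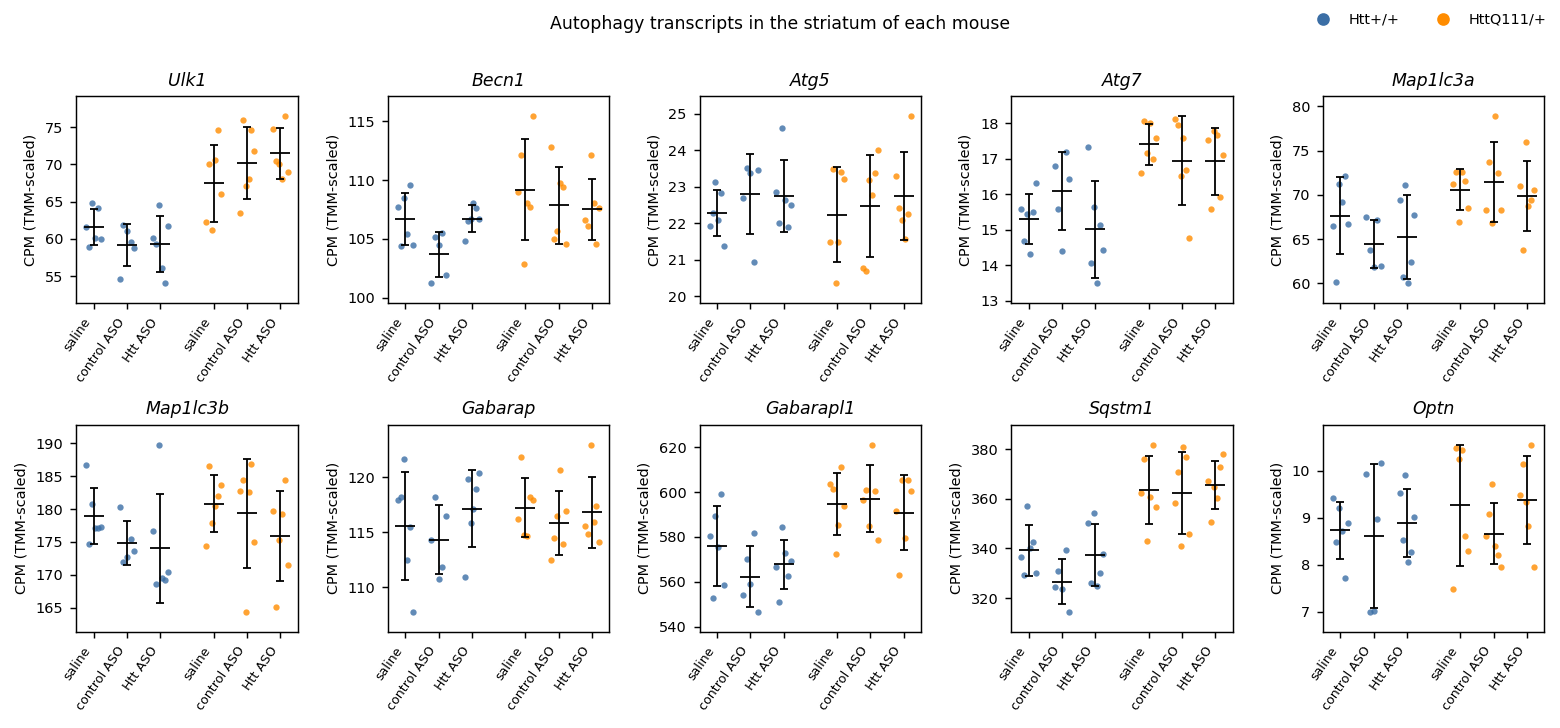
Each panel plots the TMM-scaled CPM of 1 transcript (vertical axis, not starting at 0) in every mouse (points) by treatment, Htt+/+ in blue and HttQ111/+ in orange, with the mean and SD in black. All 18 HttQ111/+ mice lay above the Htt+/+ median for *Ulk1* and *Sqstm1*, against 9 for *Atg5*, 7 for *Gabarap* and 9 for *Optn*. Over all treatments the genotypes overlapped for every member.

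Genotype was the comparison in which the members differed. Averaged over treatments, 5 of the 10 were higher in HttQ111/+ than in Htt+/+ mice, none was lower and 5 did not pass the test. The 5 were *Ulk1*, *Atg7*, *Sqstm1*, *Map1lc3a* and *Gabarapl1*, with increases from 4.49% to 16.1%. Over all genes tested the same comparison called 39.8%, and 21.8% were called higher, so a call as such was common in these mice. The median log2 difference of the members was 0.063, against 0.0037 over all genes. Scaling matters to this split: with library totals in place of TMM the median of all genes moved to 0.043, the share of calls that were higher from 54.7% to 72.1%, and the members called higher from 5 to 8.

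*Ulk1*, the kinase that starts autophagosome formation, showed the largest difference of the members. The gene lies at chr5:110784488-110810097 (minus strand, GENCODE M21 on GRCm38), with 28 exons in its longest coding transcript. In Htt+/+ mice its level ran from 58.9 over a median of 60.8 to 64.8 CPM on saline, and from 54.0 over 59.8 to 64.6 CPM on *Htt* ASO. The 5 Htt+/+ control ASO mice had 54.5, 61.8, 61.0, 59.5 and 58.7 CPM. In HttQ111/+ mice it ran from 61.2 over 68.0 to 74.6 CPM on saline, from 63.5 over 69.9 to 75.9 CPM on control ASO and from 68.1 over 70.3 to 76.4 CPM on *Htt* ASO. The genotypes did not overlap under either ASO and overlapped on saline, and 15 of 18 HttQ111/+ mice lay above every Htt+/+ mouse. The share of all genes whose groups separate in this way is not given, here or for the members below. Such separation therefore does not set these members apart from other genes, 39.8% of which were called by genotype averaged over treatments. The averaged difference was 0.22 (standard error 0.028, limma adjusted p = 1.7e-07), or 16.1%. Within treatments it was 0.13 on saline (limma adjusted p = 0.063), 0.25 on control ASO (limma adjusted p = 0.00067) and 0.27 on *Htt* ASO (limma adjusted p = 7.4e-05). On saline it passed under 4 of 10 other settings, and without HttQ111/+ replicate 1 or 3 or Htt+/+ replicate 3 (limma adjusted p from 0.026 to 0.049). The difference lay between 0.15 and 0.27 in the 5 lanes that held both genotypes.

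*Atg7* encodes the E1-like enzyme that activates ATG8 proteins and ATG12 for conjugation. It lies at chr6:114643097-114860614 on the plus strand. Its level was low, from 13.5 to 18.1 CPM over all mice. In Htt+/+ mice it ran from 14.3 over 15.5 to 16.3 CPM on saline and from 13.5 over 14.8 to 17.3 CPM on *Htt* ASO, with 16.8, 15.6, 14.4, 17.2 and 16.4 CPM in the control ASO mice. HttQ111/+ mice had 16.6 over 17.4 to 18.1 CPM on saline, 14.8 over 17.1 to 18.1 CPM on control ASO and 15.6 over 17.3 to 17.8 CPM on *Htt* ASO. The genotypes were fully apart on saline and overlapped under both ASOs. The averaged difference was 0.15 (standard error 0.032, limma adjusted p = 0.00033), or 10.6%. It was 0.19 on saline (limma adjusted p = 0.013), 0.071 on control ASO (limma adjusted p = 0.415) and 0.18 on *Htt* ASO (limma adjusted p = 0.015). The call on *Htt* ASO was lost with lane as a covariate (0.11, limma adjusted p = 0.114) and without Htt+/+ *Htt* ASO replicate 4 (0.15, limma adjusted p = 0.060), and the call on saline without the mice of lane 7 (0.18, limma adjusted p = 0.096). Within the 5 lanes with both genotypes, HttQ111/+ mice were higher by 0.029 to 0.17.

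*Sqstm1* encodes p62, which binds ubiquitin and ATG8 proteins and gathers in inclusions of many protein aggregation diseases. Its gene is at chr11:50199366-50210827 on the minus strand, and it shares 580 exonic bases with *Mrnip* on the opposite strand. A separate entry named p62 averaged 3.87 counts against 12392 for *Sqstm1* and was not added. Htt+/+ mice ran from 329 over 338 to 357 CPM on saline and from 325 over 334 to 354 CPM on *Htt* ASO, and the control ASO mice had 325, 331, 324, 339 and 315 CPM. In HttQ111/+ mice the values were 343 over 362 to 382 CPM on saline, 341 over 365 to 381 CPM on control ASO and 351 over 366 to 378 CPM on *Htt* ASO. All 18 HttQ111/+ mice were above the Htt+/+ median and 13 were above every Htt+/+ mouse, and the groups did not overlap on control ASO. The averaged difference was 0.12 (standard error 0.018, limma adjusted p = 9.9e-07), or 8.77%. *Sqstm1* was the member called under each treatment, at 0.099 on saline (limma adjusted p = 0.019), 0.15 on control ASO (limma adjusted p = 0.00095) and 0.12 on *Htt* ASO (limma adjusted p = 0.0045). The saline call was lost without HttQ111/+ saline replicate 2 or 5, without lane 7 or with only the groups compared (0.084 to 0.097, limma adjusted p from 0.050 to 0.099). In the 5 lanes with both genotypes the difference was between 0.069 and 0.13.

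*Map1lc3a* and *Gabarapl1* were the ATG8-family members called by genotype. *Map1lc3a* (chr2:155276297-155278073, plus strand) encodes LC3A, which is anchored in autophagosome membranes. It ran from 60.1 over 67.9 to 72.2 CPM on saline and from 60.0 over 65.1 to 71.1 CPM on *Htt* ASO in Htt+/+ mice, with 67.5, 63.7, 61.9, 67.1 and 61.9 CPM on control ASO. HttQ111/+ mice had 66.9 over 71.4 to 72.6 CPM on saline, 66.9 over 70.4 to 78.9 CPM on control ASO and 63.7 over 70.0 to 76.0 CPM on *Htt* ASO. The genotypes overlapped under every treatment, though 17 of 18 HttQ111/+ mice were above the Htt+/+ median. The averaged difference was 0.10 (standard error 0.028, limma adjusted p = 0.0029), and without the 6 mice of lane 7 it was 0.077 and lost the call (limma adjusted p = 0.051). Within treatments the call was made on control ASO, at 0.15 (limma adjusted p = 0.037), and it was lost when any of 6 mice of the control ASO groups was left out: HttQ111/+ replicates 2, 4 and 5, and Htt+/+ replicates 2, 3 and 5 (0.12 to 0.14, limma adjusted p from 0.063 to 0.114), or without lane 7 (0.10, limma adjusted p = 0.241).

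*Gabarapl1* (chr6:129533160-129542346, plus strand) encodes an ATG8 protein of the GABARAP branch. Htt+/+ mice ran from 553 over 578 to 599 CPM on saline and from 551 over 568 to 584 CPM on *Htt* ASO, and had 554, 569.9, 559, 582 and 547 CPM on control ASO. HttQ111/+ mice ran from 572 over 598 to 611 CPM on saline, from 578 over 599 to 621 CPM on control ASO and from 563 over 596 to 605 CPM on *Htt* ASO. The groups overlapped under each treatment, with 17 of 18 HttQ111/+ mice above the Htt+/+ median. The averaged difference was small and precise, at 0.063 (standard error 0.014, limma adjusted p = 0.00036), or 4.49%. It was 0.086 on control ASO (limma adjusted p = 0.013), a call lost without lane 7 (0.069, limma adjusted p = 0.108) or with only the groups compared (0.084, limma adjusted p = 0.055). It did not pass on saline (0.046) or on *Htt* ASO (0.057). On saline it passed with library totals (0.084, limma adjusted p = 0.0039). On *Htt* ASO it passed with library totals (0.11, limma adjusted p = 0.00016), with sample quality weights (0.064, limma adjusted p = 0.031) and without HttQ111/+ *Htt* ASO replicate 2 (0.071, limma adjusted p = 0.030). A transcript on the opposite strand shares 570 exonic bases with it.

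The 5 members that did not pass the averaged genotype test came from every role but the initiating kinase. *Becn1* (chr11:101285952-101302286, minus strand), for beclin 1 of the lipid kinase complex, ran from 101 to 110 CPM in Htt+/+ and from 103 to 115 CPM in HttQ111/+ mice. Its difference of 0.033 (95% confidence interval 0.0044 to 0.062) had an unadjusted p of 0.025 and a limma adjusted p of 0.061. It passed with library totals (0.072, limma adjusted p = 3.2e-05), with sample quality weights (0.035, limma adjusted p = 0.035) and without HttQ111/+ saline replicate 3, control ASO replicate 2 or 6, or *Htt* ASO replicate 5 (0.036 to 0.039, limma adjusted p from 0.021 to 0.048), and it was higher in HttQ111/+ mice in 5 of 5 lanes. *Becn1* shares 3104 exonic bases with *Cntd1* on the opposite strand, a gene also in the table. *Atg5* (chr10:44268358-44364291, plus strand), part of the ATG12 conjugate that helps join LC3 to lipid, ran from 20.9 to 24.6 CPM in Htt+/+ and from 20.4 to 24.9 CPM in HttQ111/+ mice, with a difference of −0.0086 (95% confidence interval −0.060 to 0.043).

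*Map1lc3b* (chr8:121590361-121598760, plus strand), for the LC3B protein most used to mark autophagosomes, ran from 169 to 190 CPM in Htt+/+ and from 164 to 187 CPM in HttQ111/+ mice. Its difference was 0.022 (95% confidence interval −0.014 to 0.059). *Gabarap* (chr11:69991143-69994951, plus strand) ran from 108 to 122 CPM and from 112 to 123 CPM, with a difference of 0.012 (95% confidence interval −0.020 to 0.044). Each passed with library totals and in no other setting or fit without 1 mouse. *Optn* (chr2:5020642-5064051, minus strand), whose product is a ubiquitin-binding receptor activated by the kinase TBK1, was the lowest and most variable member, from 7.0 to 10.2 CPM and from 7.49 to 10.6 CPM. Its difference of 0.063 (standard error 0.054, limma adjusted p = 0.382) was close to that of *Gabarapl1* in size, with an interval from −0.047 to 0.17.

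**Figure D2:**
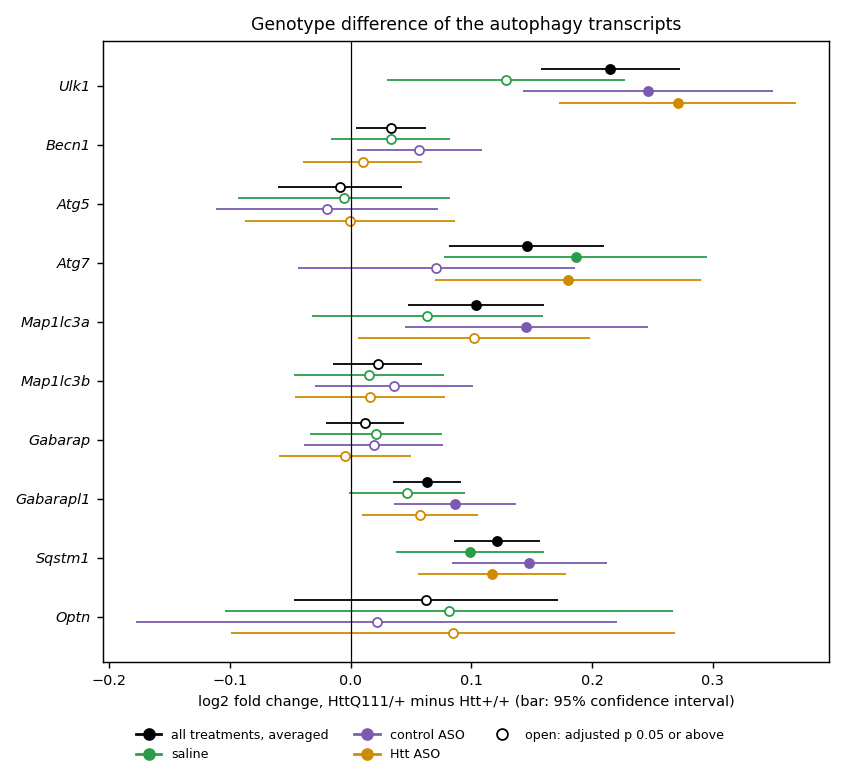
The log2 fold change of HttQ111/+ minus Htt+/+ (horizontal axis) with its 95% confidence interval is drawn for each member, averaged over treatments (black) and within saline (green), control ASO (purple) or *Htt* ASO (orange) mice, filled where the adjusted p was under 0.05. *Sqstm1* was called in all 4 comparisons, while *Atg5* and *Gabarap* sat close to 0 in each.

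Within single treatments 2 members were called for saline mice, 4 for control ASO mice and 3 for *Htt* ASO mice, all higher in HttQ111/+ mice. The background shares of called genes were 17.4%, 18.5% and 21.2%. These counts do not show that the genotype difference itself differed between treatments, which the interaction tests address. For *Htt* ASO against control ASO no member had an interaction with genotype, and 0% of all genes did (713 at an unadjusted p under 0.05, and none by edgeR or DESeq2). For *Htt* ASO against saline, again with 0% of genes called (973 at an unadjusted p under 0.05, and none by edgeR or DESeq2), *Ulk1* had the smallest p, with an interaction of 0.14 (95% confidence interval 0.0034 to 0.28, limma adjusted p = 0.850).

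Members set in pairs did not all differ by the same amount, which a ratio within each mouse tests without regard to library scaling. Each pair set a member called by genotype against one that was not, so these tests are not independent of the calls above. The log2 ratio of *Ulk1* to *Becn1* was higher in HttQ111/+ mice by 0.18, averaged over treatments (permutation test, p = 1e-05, the smallest the permutations can give, adjusted p = 0.0002 over 20 tests). The ratio of *Atg7* to *Atg5* was higher by 0.15 (permutation test, adjusted p = 0.0135). Between the LC3 genes, the ratio of *Map1lc3b* to *Map1lc3a* was 2.53 in HttQ111/+ and 2.68 in Htt+/+ mice, a log2 difference of −0.081 (permutation test, adjusted p = 0.0133), and was above the Htt+/+ median in 2 of 18 HttQ111/+ mice. Between the GABARAP genes, the ratio of *Gabarapl1* to *Gabarap* was 5.09 in HttQ111/+ and 4.92 in Htt+/+ mice (log2 difference 0.051, permutation test, adjusted p = 0.0208), with all 18 HttQ111/+ mice above the Htt+/+ median. *Sqstm1* to *Optn* differed by 0.063, which did not pass (permutation test, adjusted p = 0.726). Without the mice of lane 7 the called ratios other than *Ulk1* to *Becn1* lost the call, at −0.063 for the LC3 genes, 0.047 for the GABARAP genes and 0.15 for *Atg7* to *Atg5*. The 15 tests of these ratios between treatments gave no call.

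Treatment changed none of the 10 transcripts to a detectable extent. Between *Htt* ASO and control ASO, averaged over genotypes, no member was called, where 0.935% of all genes were, and none had an unadjusted p under 0.05 (smallest limma adjusted p = 0.953). Against saline, *Htt* ASO likewise called no member among 1.47% of genes (smallest limma adjusted p = 0.571). Control ASO against saline called 0% of genes by limma, with 1357 at an unadjusted p under 0.05, and none by edgeR or DESeq2. The same held for the members within each genotype: none of the 6 comparisons of treatments in Htt+/+ or in HttQ111/+ mice called any.

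The intervals state how large a treatment difference these data leave room for. For *Htt* ASO against control ASO, the interval stayed within −0.10 to 0.10 for 8 of the 10 members. *Sqstm1* differed by 0.030 (95% confidence interval −0.014 to 0.074), *Ulk1* by 0.016 (−0.056 to 0.087) and *Gabarapl1* by −0.00059 (−0.035 to 0.034). The members with wider intervals were *Atg7*, at −0.052 (−0.13 to 0.027), and *Optn*, at 0.084 (−0.051 to 0.22). Against saline, 7 of 10 stayed within the same bounds, and *Map1lc3b* came closest to a call, at −0.041 (−0.085 to 0.0031). For control ASO against saline 9 of 10 did, the exception being *Optn*. Comparisons that share the control ASO or saline mice are not independent of each other.

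**Figure D3:**
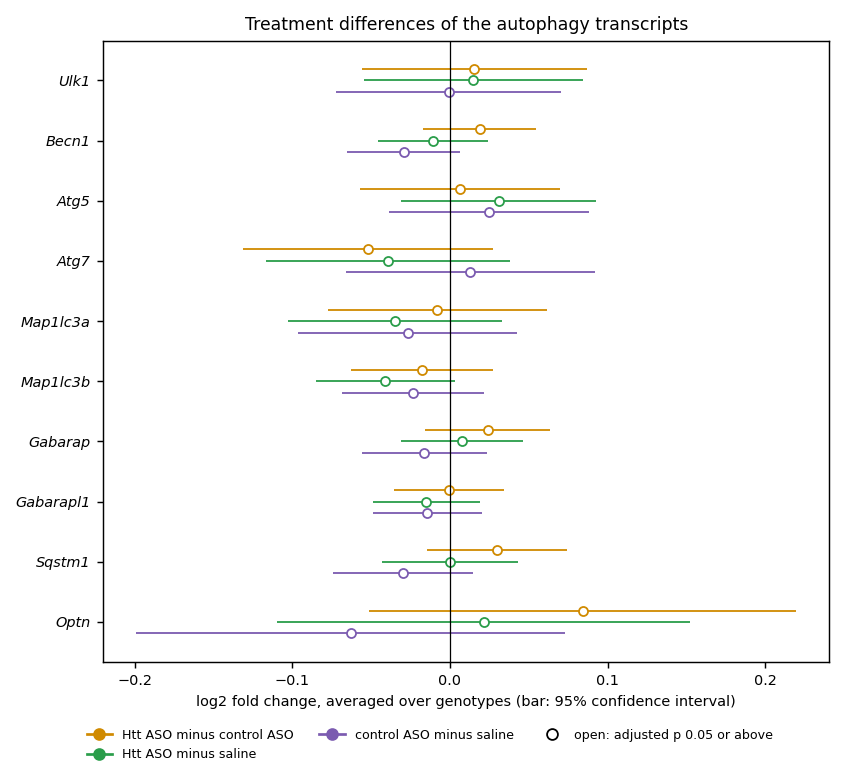
The log2 fold changes between treatments (horizontal axis), averaged over genotypes, are drawn with 95% confidence intervals for the 10 members. Every interval includes 0, and the widest are those of *Optn*, from −0.20 to 0.22.

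Mice of the same group differed in these transcripts, and several members varied together. Log2 CPM were centred on each group's mean and correlated over the 35 mice for all 45 pairs of members. Pearson's r ran from −0.36 to 0.80 with a median of 0.25, and 8 pairs passed both Pearson's and Spearman's permutation tests after adjustment over 45 pairs, each positive. The strongest was *Sqstm1* with *Gabarapl1* (r = 0.80, rho = 0.81, permutation tests, adjusted p = 0.00015 and 0.00022). *Sqstm1* with *Map1lc3a* (r = 0.77, rho = 0.82) and *Map1lc3a* with *Gabarapl1* (r = 0.73, rho = 0.69) were the next strongest. The others were *Sqstm1* with *Map1lc3b* (r = 0.63, rho = 0.57) and with *Ulk1* (r = 0.57, rho = 0.58), *Map1lc3a* with *Atg7* (r = 0.56, rho = 0.54) and with *Map1lc3b* (r = 0.55, rho = 0.54), and *Gabarapl1* with *Becn1* (r = 0.52, rho = 0.55). Without the 2 mice farthest from the median of the first gene, r was 0.50 to 0.78 over the 8 pairs. Genes outside the list, picked as most alike among 11993, reached higher r within groups. Examples were *Map1lc3a* with *Gapdh* (0.89) and *Sqstm1* with *Cxx1c* (0.85). The share of all gene pairs that vary together is not given, so the 8 pairs do not set the members apart from other genes.

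Lane moved with part of this covariation. With lane means also removed, r was 0.69 for *Sqstm1* with *Gabarapl1*, 0.54 for *Sqstm1* with *Map1lc3a* and 0.53 for *Map1lc3a* with *Gabarapl1*. It was 0.59 for *Sqstm1* with *Ulk1* and 0.55 for *Gabarapl1* with *Becn1*. It was 0.18 for *Map1lc3a* with *Map1lc3b* and 0.25 for *Map1lc3a* with *Atg7*, so those relations were weak within lanes. Lanes held 5 or 6 mice each, too few for a correlation in each of them. *Optn* was in none of the pairs that passed, with its r to the other members between −0.36 (*Becn1*) and 0.39 (*Atg7*).

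**Figure D4:**
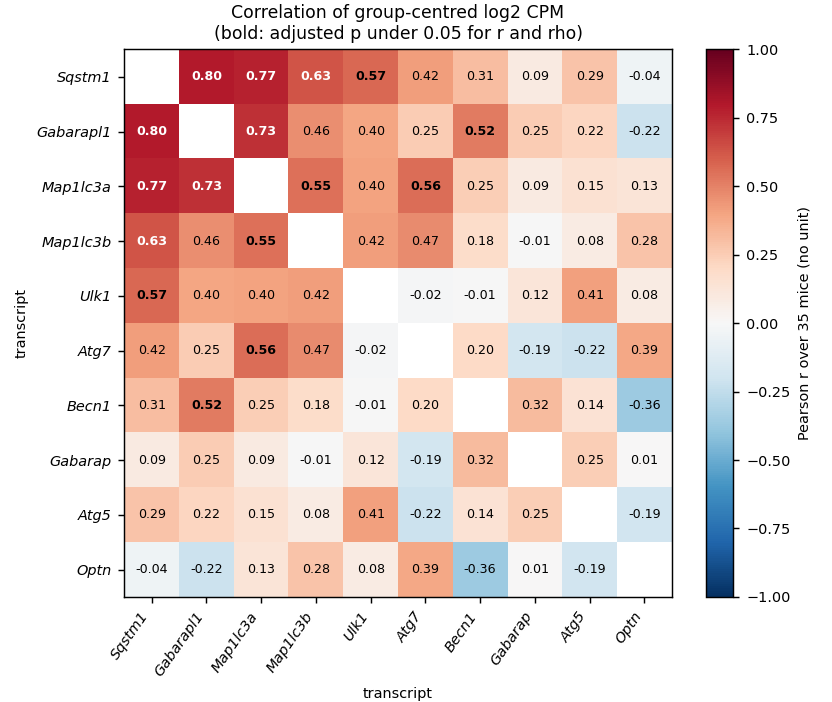
The matrix gives Pearson's r (colour and printed value) between each pair of transcripts over 35 mice, on log2 CPM centred within groups, in bold where Pearson's and Spearman's tests both passed. *Sqstm1*, *Gabarapl1* and *Map1lc3a* form a block with r of 0.73 to 0.80, and *Optn* has no value in bold.

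Over all 35 mice, the genes whose log2 CPM were most like each member's were sought among 11993 genes of at least 5 CPM, as a description with no test. Both genotypes enter here, so genes that differ by genotype in the same direction resemble each other, and libraries and lanes are shared. *Sqstm1* was most like *Cxx1c* (r = 0.93, and 0.85 within groups) and *Cdipt* (r = 0.92). *Ulk1* was most like *Wiz* (r = 0.93, and 0.78 within groups), and *Map1lc3a* most like *Gapdh* (r = 0.93, and 0.89 within groups), the glycolytic gene often used as a reference. *Gabarapl1* was most like *Rrp1* and *Ppp2r1a* (r = 0.91 each). *Atg5* had the weakest likeness to any gene, at 0.61 with *Dnajb4*.

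Of the wider autophagy pathway, 65 further genes were tested, from a list of kinase complexes, lipid and conjugation machinery, receptors, lysosomal and upstream genes. By genotype, averaged over treatments, 8 were higher, 16 were lower and 41 did not pass, or 36.9% called against 39.8% of all genes, with a median of −0.0025. With library totals the list's calls became 24 higher and 6 lower, with the sign turned for 1 of the 24 genes called with TMM. In the kinase complex around ULK1, *Atg101* (−0.097) and *Atg13* (−0.053) were lower and *Rb1cc1* and *Ulk2* did not pass. With library totals both lost the call, at −0.058 and −0.014. In the class III lipid kinase complex around beclin 1, *Uvrag* (−0.12), *Atg14* (−0.12) and *Pik3r4* (−0.081) were lower and 4 did not pass. With library totals *Uvrag* (−0.079) and *Atg14* (−0.077) were still called and *Pik3r4* (−0.042) was not.

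Among the conjugation genes, 2 of 9 were higher and 1, *Atg12*, was lower (−0.060). With library totals *Atg12* lost the call (−0.021, limma adjusted p = 0.413). *Atg16l2*, a relative of the ATG5 partner ATG16L1, had the largest increase of the list, at 0.29 (standard error 0.033, limma adjusted p = 1.1e-08), and *Atg4b*, whose protease trims LC3 before conjugation, was higher by 0.11 (limma adjusted p = 3.5e-07). The remaining ATG8-family gene, *Gabarapl2*, was higher by 0.061 (limma adjusted p = 0.0015). Of 6 genes of phagophore growth, *Vmp1*, a membrane protein of the endoplasmic reticulum listed as *Tmem49*, was lower by 0.26 (−0.26, standard error 0.022, limma adjusted p = 1.1e-11) and the other 5 did not pass. Of 11 other receptors and their regulators, *Ncoa4*, the receptor for ferritin, was higher (0.068), and *Calcoco1* (−0.14), *Bnip3* (−0.097) and *Nbr1* (−0.040, and −0.00073 with library totals, where the call was lost) were lower. *Bnip3* was still called with library totals, at −0.058. *Wdfy3*, also of this list, did not pass with the entry used (−0.0025, limma adjusted p = 0.977). Its second entry, *mKIAA0993*, was called higher (0.14, limma adjusted p = 0.0038), with a mean of 1063 counts against 3113 for the entry used.

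Of 12 fusion and lysosomal genes, *Stx17*, the autophagosomal fusion syntaxin, was higher (0.092), as were *Mcoln1* and *Ctsl* (0.055 each), while *Vamp8* (−0.12) and *Ctsb* (−0.037, and 0.0016 with library totals, where the call was lost) were lower. Of 12 upstream genes, the stress-responsive *Sesn2* was higher (0.17), and its relative *Sesn3* was lower (−0.31, standard error 0.12, limma adjusted p = 0.032), together with *Tsc1* (−0.11), *Sesn1* (−0.067) and *Prkaa1* (−0.064). With library totals *Tsc1* was still called (−0.075), while *Sesn1* (−0.028) and *Prkaa1* (−0.025) were not. The *Sesn3* call was lost with library totals, with lane as a covariate, without lane 7 and without any of 6 single mice: Htt+/+ control ASO replicate 1 and saline replicate 4, and HttQ111/+ saline replicate 4, control ASO replicate 6 and *Htt* ASO replicates 3 and 5 (−0.29 to −0.27, limma adjusted p from 0.051 to 0.059). A second entry for the gene, *BC003348*, was lower by a smaller amount (−0.11, limma adjusted p = 0.0039) and held more reads, with a mean of 4173 counts against 1888 for the entry named *Sesn3*. *Vmp1* and *Ncoa4* also have second entries, *ni-2* and *Rfg*, with means of 0.892 and 10.7 counts against 4257 and 4225 for the entries used. The *Vamp8* call was lost with library totals, with lane as a covariate and without lane 7. None of the 3 genes tied to p62 in oxidative stress signalling, *Keap1*, *Nfe2l2* and *Nqo1*, passed. In no treatment comparison or interaction was any of the 65 called.

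**Figure D5:**
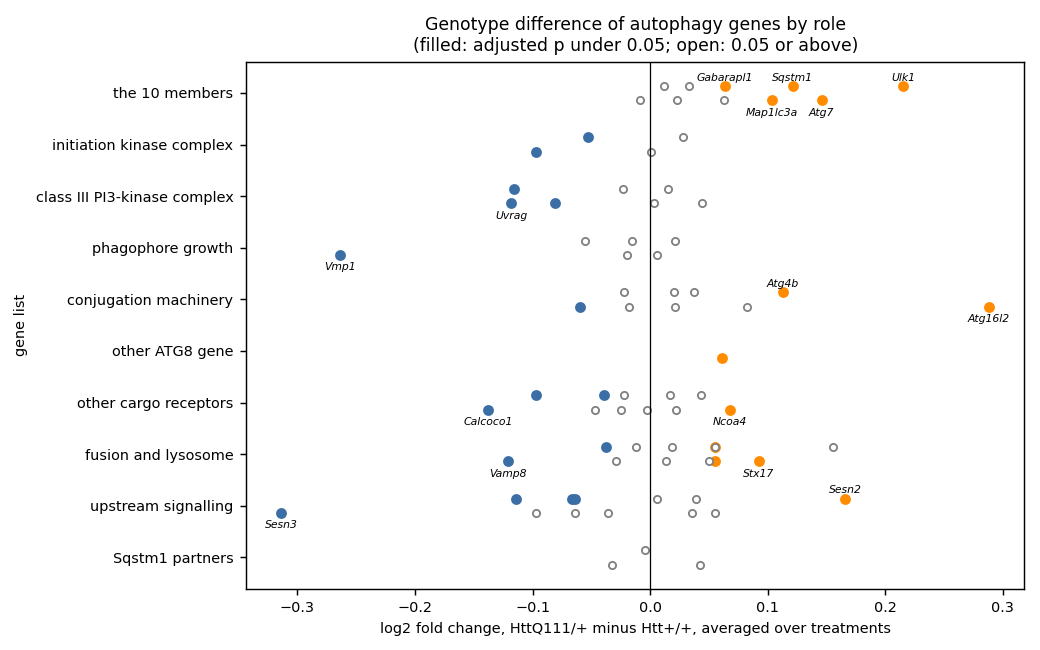
Each point is the log2 fold change of HttQ111/+ minus Htt+/+ (horizontal axis), averaged over treatments, of 1 gene, for the 10 members and for 65 further genes by role. Filled points had an adjusted p under 0.05 (orange higher, blue lower). The called members all lie to the right of 0. The initiation kinase and class III lipid kinase partners called lie to the left with the TMM scaling plotted, and 3 of these 5 lost the call with library totals.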

How the data were processed

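Striatal RNA of 35 mice was measured, 1 library per mouse, in 6 groups taken from the labels. The authors prepared TruSeq Stranded mRNA libraries, sequenced them as paired reads, aligned these to the mouse transcriptome (MGSCv37, mm9) with Bowtie 0.12.9 and quantified genes with RSEM 1.1.18, per the labels and the submitters' processing notes. The authors deposited expected counts from RSEM, not scaled for library size, and 55.6% of them were whole.

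In R 4.3.3, filterByExpr (edgeR 4.0.16, minimum count 10, minimum total 15) kept 17639 of 22099 genes. TMM-scaled counts were fitted with voom and limma 3.58.1 with 1 mean per group (29 residual and 4.30 prior degrees of freedom), with Benjamini-Hochberg adjustment over these genes. Log2 CPM used a prior count of 2. Ratios and correlations used permutation tests, two-sided, with 100000 resamples (20000 when leaving out a mouse).

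Members and lists were chosen with earlier results of these data known. Members were all named, and 11 pathway genes were found under older symbols. Pathway genes given in detail were the 5 largest calls each way at a mean of 1 CPM or more. The remaining called genes were named after their values were seen. Positions and lengths came from GENCODE M21 (GRCm38). The authors used an earlier build, and no coordinate was converted. The labels do not say whether mice of a group shared a litter or cage.

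Tried as well were, on rounded counts, DESeq2 1.42.0 and the quasi-likelihood test of edgeR, and, with limma, library totals, other filters, lane as a covariate, quality weights, only the groups compared, and leaving out lane 7, the left hemistriatum mouse (1 Htt+/+ *Htt* ASO mouse) or each mouse. No 2 libraries of a group were duplicates (chi-square over its degrees of freedom 3.49 to 15.8 in 85 pairs). The code was tested on simulated data.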

Additional observations from a re-analysis of the deposited data

Results flagged for a closer look

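Of 60 sets of values, each of 10 transcripts in 6 groups, 2 held a mouse far from the others of its group by Dixon's test, and chance alone sets apart about 1 in 20. *Gabarap* was 122.959 CPM in HttQ111/+ *Htt* ASO replicate 3 (lane 8), against 117.375 CPM in the nearest mouse of that group. *Atg5* was 24.6055 CPM in Htt+/+ *Htt* ASO replicate 3 (lane 4), against 22.8523 CPM in the nearest. By limma on TMM-scaled counts neither transcript was called in any genotype comparison, with or without these mice.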

How the results depend on the processing

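No paired analysis was possible because the labels carry no replicate numbers that pair mice, and the numbers used here only follow the order of deposition. Of the called pathway genes, *Ctsb* turned sign with library totals (−0.037 to 0.0016), and no called member did in any setting. Members called by genotype numbered 8 (averaged), 5 (saline) and 6 (*Htt* ASO) with library totals, against 5, 2 and 3, and pathway genes 24 higher and 6 lower, against 8 and 16. Without lane 7 they numbered 0 on saline and 2 on control ASO, and 10 pathway genes were lower; with only the groups compared, 1 on saline. Without lane 7 the ratio differences were −0.063 (*Map1lc3b* to *Map1lc3a*, adjusted p = 0.138), 0.047 (*Gabarapl1* to *Gabarap*, adjusted p = 0.138) and 0.15 (*Atg7* to *Atg5*, adjusted p = 0.101), all permutation tests. The cause of these changes was not tested. Fits without lane 7 or with only the groups compared also held fewer mice. Leaving out 1 mouse gave 5 to 6 members averaged, 1 to 3 on saline (1 without HttQ111/+ saline replicate 2 or 5), 3 to 4 on control ASO, 2 to 4 on *Htt* ASO, and 8 to 10 pathway genes higher and 13 to 17 lower. *Ulk1*, *Sqstm1*, *Atg7* and *Gabarapl1* kept the averaged call in all 9 other settings and 35 fits without 1 mouse, with differences of 0.20 to 0.25, 0.10 to 0.16, 0.11 to 0.18 and 0.055 to 0.10. No treatment or interaction call was made for a member in any setting (lowest adjusted p = 0.282). Depth limited *Optn* most, at 233 to 405 counts per mouse.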
